A study of Mus musculus with 6 samples.

Results

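The genes described here are the 4 inhibitors of DNA binding and differentiation, Id1, Id2, Id3 and Id4, which were 4 of the 56953 genes in the table. They were taken by gene identifier through the GENCODE mouse annotation, and the family was picked because Id4 went from near 0 in WT to abundant in the libraries labelled GαqKO. The difference between these groups therefore chose the family, and for the 4 Id genes it is given as a description with no test. RNA from mouse embryonic fibroblasts (MEFs), cells grown out of embryos, was sequenced in 6 libraries. Of these, 3 came from WT MEFs and 3 from MEFs labelled GαqKO, all cultured in DMEM with 10% fetal bovine serum and with no treatment named in the labels. The study's methods describe the knockout MEFs as lacking both Gαq and Gα11, G proteins that couple receptors to phospholipase C, and both kinds of MEF as cells supplied by another laboratory. The replicates came from such MEFs, so the genotype and the origin of the cells cannot be told apart.

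ID proteins are helix-loop-helix proteins that lack the basic region with which related factors bind DNA. They pair with E proteins, the common partners of basic helix-loop-helix (bHLH) factors, and the pairs cannot bind DNA, which holds back differentiation genes and cell cycle inhibitors. Bone morphogenetic proteins (BMPs), acting through the SMAD factors, are well-known inducers of Id1, Id2 and Id3 in many cell types, fibroblasts included, while Id4 is best known from the nervous system and from stem cells of the male germ line.

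The stretch of coding sequence that the 4 genes share most is printed here because it shows how alike the members are that behaved so differently. Read from the GRCm39 genome by the GENCODE M39 coding coordinates, the 4 coding sequences had 444, 402, 357 and 483 bases for Id1, Id2, Id3 and Id4. An ungapped block of 120 bases aligned in all 4, and 70 of its bases, in capitals below, were identical in every member. The block began at coding base 180 in Id1, 111 in Id2, 126 in Id3 and 198 in Id4.
Id1 coding block: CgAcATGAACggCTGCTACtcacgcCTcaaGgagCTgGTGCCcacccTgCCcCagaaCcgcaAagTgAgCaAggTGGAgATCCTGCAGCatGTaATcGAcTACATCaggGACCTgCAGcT
Id2 coding block: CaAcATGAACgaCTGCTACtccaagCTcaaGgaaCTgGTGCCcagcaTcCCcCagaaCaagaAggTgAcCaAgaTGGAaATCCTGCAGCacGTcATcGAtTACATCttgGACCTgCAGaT
Id3 coding block: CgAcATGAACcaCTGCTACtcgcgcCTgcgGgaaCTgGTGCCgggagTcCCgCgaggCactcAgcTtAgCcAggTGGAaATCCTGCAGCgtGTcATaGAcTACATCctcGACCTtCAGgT
Id4 coding block: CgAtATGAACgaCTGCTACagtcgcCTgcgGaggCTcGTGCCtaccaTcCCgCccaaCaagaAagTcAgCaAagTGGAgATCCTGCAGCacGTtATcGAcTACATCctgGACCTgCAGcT
Within the block the pairs of genes shared from 70.8% (Id1 and Id3) to 80.8% (Id1 and Id2) of their bases, against 51.4% to 58.1% of the aligned coding bases outside it. Id4 shared 78.3% of the block with Id1, 75.0% with Id2 and 71.7% with Id3.

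The deposited values are gene counts divided by a size factor per library, here called normalized counts, and they summed to between 11392429 and 11483486 per library. Of the targeted genes, Gnaq, which encodes Gαq, had a mean of 1691 ± 48.5 normalized counts in WT (SD over 3 libraries) and 1926 ± 36.0 in the libraries labelled GαqKO, and Gna11, which encodes Gα11, had 2148 ± 29.0 and 452 ± 28.7. Gnaq was thus not lower, so these libraries are called by their label throughout. A gene total cannot show a deletion of part of the gene. The Y-linked gene Ddx3y had 1197 ± 52.3 normalized counts in WT and was listed at 0 in each library labelled GαqKO. The summed level of 10 fibroblast markers was 84406 to 90167 in WT and 62921 to 66196 in the libraries labelled GαqKO, with 9 and 10 of the markers above 3 counts on average. Of these, Thy1 was within the floor in WT and had 64.9 ± 10.1 in the other group, and Pdgfra had 19.6 ± 2.23 and 2320 ± 42.0. Dcn and S100a4 were also called higher, Col1a1 was called lower (16671 ± 1168 and 5775 ± 272), and Vim, Fn1, Col1a2 and Col3a1 were lower and Pdgfrb higher within the fold limits. Neural and glial markers summed to between 7574 and 8080 in WT and 944.6 and 980.8 in the other group, most of it Nes (7439 ± 282 and 899 ± 27.8), with Olig2 at 0 throughout and Sox10 and S100b under 4 on average. Epithelial markers summed to between 515.0 and 540.9 in WT and 10.1 and 23.1 in the other group. Endothelial, leukocyte, skeletal muscle and adipocyte markers summed to at most 115.0 in each library. The part of these marker differences in the Id values was not tested, and in bulk RNA fewer cells of a type and less RNA per cell cannot be told apart.

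Id1 (ENSMUSG00000042745, chr2:152566218-152579544 of GRCm39, plus strand, with the canonical transcript starting at 152578165) is the member most often read as a BMP response. It had 2624, 2316.8 and 2144.6 normalized counts in the WT libraries and 5484.8, 5830.9 and 5927.4 in those labelled GαqKO. The groups did not overlap. The means were 2362 ± 243 and 5748 ± 233 (SD, n = 3), 2.43-fold apart, with a log2 fold change of 1.29 (SE 0.063). Of the 14096 genes tested, 69.6% also had groups that did not overlap (33.8% with WT below and 35.8% with WT above), and nothing is read from that share for the Id genes, which were chosen in this contrast.

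Id2 (ENSMUSG00000020644, chr12:25143798-25147282, minus strand), known for its part in lymphoid and mammary development, ran the other way. It had 1221.7, 1159.9 and 988.3 normalized counts in WT and 238.5, 217.4 and 191.3 in the libraries labelled GαqKO. Every WT library lay far above every other. The means were 1123 ± 121 and 215.7 ± 23.6, with WT 5.21-fold higher and a log2 fold change of -2.38 (SE 0.095).

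Id3 (ENSMUSG00000007872, chr4:135870808-135873066, plus strand), which often accompanies Id1, differed least. Its values were 2912.2, 2802.6 and 2542.6 normalized counts in WT and 1932.5, 2076.6 and 2176.2 in the libraries labelled GαqKO. The lowest WT library stood above the highest library of the other group, by less than the range within WT. The means were 2753 ± 190 and 2062 ± 123, a log2 fold change of -0.42 (SE 0.058), and 48.0% of the tested genes had a larger difference in either direction.

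Id4 (ENSMUSG00000021379, chr13:48414558-48419502, plus strand) was at or near background in WT, with 1.0, 1.9 and 1.0 normalized counts, and had 2702.5, 2845.5 and 2625.3 in the libraries labelled GαqKO. No WT library exceeded 3 counts, the limit that a count of 0 allows and the floor used here. With a mean of 2724 ± 112 against that floor per library, Id4 was at least 908-fold higher. Its fitted log2 fold change of 10.21 (SE 0.18), which depends on the pseudocount, was the second highest of the 14096 genes tested.

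**Figure D1:**
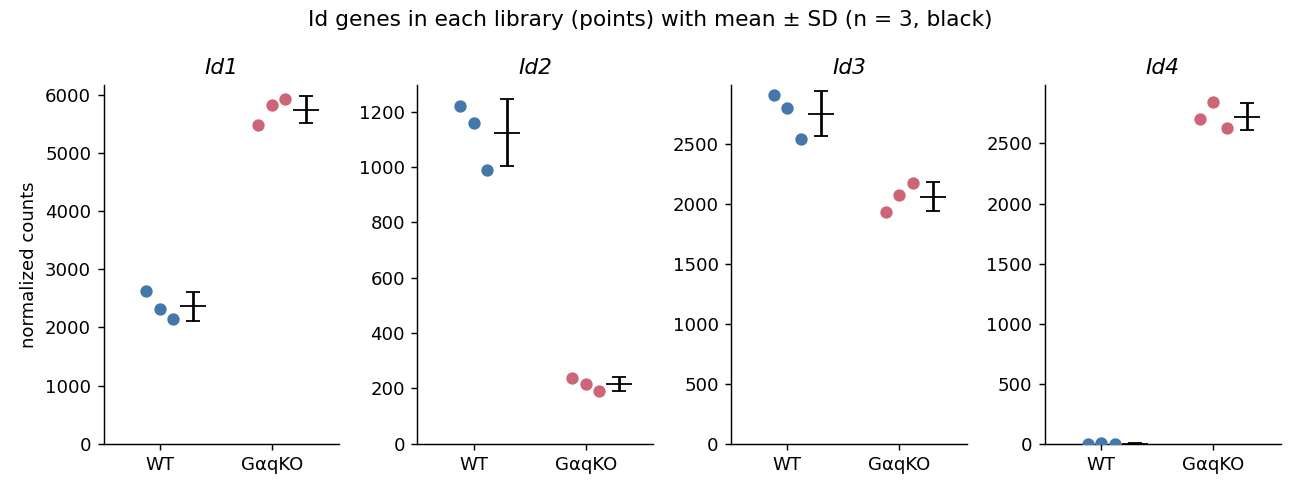
Normalized counts of Id1, Id2, Id3 and Id4 in each library (points, replicates 1 to 3 from left to right) with the mean and SD of 3 libraries (black) for WT and GαqKO, each panel on its own axis from 0. Id1 and Id4 were higher and Id2 and Id3 lower in the libraries labelled GαqKO, and in no panel did the groups overlap.

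The spread among libraries of a group differed between the Id genes. In WT the coefficient of variation was 10.3% for Id1, 10.8% for Id2 and 6.90% for Id3. The median over 8261 genes with a mean of 200 to 6000 normalized counts was 5.26%, and the 90th percentile was 11.0%. In the libraries labelled GαqKO it was 4.05% for Id1, 11.0% for Id2, 5.94% for Id3 and 4.10% for Id4, beside a median of 4.45% and a 90th percentile of 9.20% over 8253 genes. Id2 thus lay above that percentile and Id1 and Id4 below the median, and Id2, at 215.7 normalized counts, stood near the lower end of the range of levels compared. The Id1, Id2 and Id3 values moved together across the WT libraries, highest in WT replicate 1 and lowest in WT replicate 3. In the other group Id1 and Id3 were both lowest in replicate 1 and highest in replicate 3, and Id2 had the opposite order.

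Levels were compared between members per kilobase of the canonical transcript, which has 1154 bases for Id1, 2463 for Id2, 1278 for Id3 and 3995 for Id4. In WT, Id3 had 2154 ± 149 and Id1 2047 ± 210 normalized counts per kb, neighbours in the order whose difference was within their SDs with this length. Id2 followed with 456 ± 49.1 and Id4 with 0.33. In the libraries labelled GαqKO the order became Id1 (4981 ± 202 per kb), Id3 (1613 ± 95.9), Id4 (682 ± 28.0) and Id2 (87.6 ± 9.59), each step larger than the SDs. The order depends on the length used. The strand setting and the unit of the authors' counting are not stated, and counting over exons without strand can leave out reads that fall in exons of 2 genes. Exons of another gene of the table, on the opposite strand, cover 18.9% of the transcript bases of Id2, 16.6% of Id3, 4.28% of Id4 and 0% of Id1. Per kb of the bases outside such exons, Id3 had 2582 ± 178 and Id1 2047 ± 210 in WT, now more than their SDs apart, and the order in the libraries labelled GαqKO stayed Id1 (4981 ± 202), Id3 (1934 ± 115), Id4 (712 ± 29.2) and Id2 (108.0 ± 11.8). A stricter length drops each base within the whole span of those genes, introns included, which is 62.4% of Id2, 72.7% of Id3 and 23.0% of Id4 and leaves 349 bases of Id3; both shorter lengths were chosen after seeing the data. With it Id3 stood above Id1 in both groups, at 7887 ± 544 against 2047 ± 210 in WT and 5908 ± 351 against 4981 ± 202 in the other. The overlapping genes, Gm36287, Gm57159 and Gm49291, had at most 7.3, 4.2 and 0 normalized counts in any library. Among 14060 tested genes ranked per kb of canonical transcript, Id1 stood at percentile 97.8 in WT and 99.2 in the other group, and Id3 at 97.9 and 96.8. Id2 stood at percentile 85.2 in WT and 45.6 in the other group, and Id4 at 0.669 and 90.9.

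The ratio of Id1 to Id3 per kb of transcript, free of library scaling, was 0.998, 0.916 and 0.934 in the WT libraries. It was 3.14, 3.11 and 3.02 in those labelled GαqKO. Its size follows the length, with means of 0.792 and 2.58 outside exons of other genes and 0.259 and 0.844 outside their spans, so that Id1 lay above Id3 in the libraries labelled GαqKO with the first 2 lengths and below it with the last. The ratio varied less among libraries than Id1 or Id3 did in WT, with a coefficient of variation of 4.55% there and 2.13% in the other group.

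Summed per kb, the 4 Id genes came to 4657 ± 400 normalized counts per kb in WT and 7364 ± 286 in the libraries labelled GαqKO. Id3 and Id1 made up 46.3% and 43.9% of the WT sum, Id2 9.78% and Id4 0.0072%. In the libraries labelled GαqKO, Id1 made up 67.6%, Id3 21.9%, Id4 9.27% and Id2 1.19%. Outside exons of other genes the sums were 5192 ± 440 and 7735 ± 302, with shares of 49.8%, 39.4%, 10.8% and 0.0067% for Id3, Id1, Id2 and Id4 in WT and 25.0%, 64.4%, 1.40% and 9.22% in the other group. Outside the spans, introns included, the sums were 11148 ± 872 and 12008 ± 521 and the libraries of the groups overlapped. Id3 was then the largest share in both groups, 70.8% and 49.2%, which rests on its 349 remaining bases. With each of the 3 lengths, Id1 and Id4 took a larger share and Id2 and Id3 a smaller share of the sum in the libraries labelled GαqKO.

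**Figure D2:**
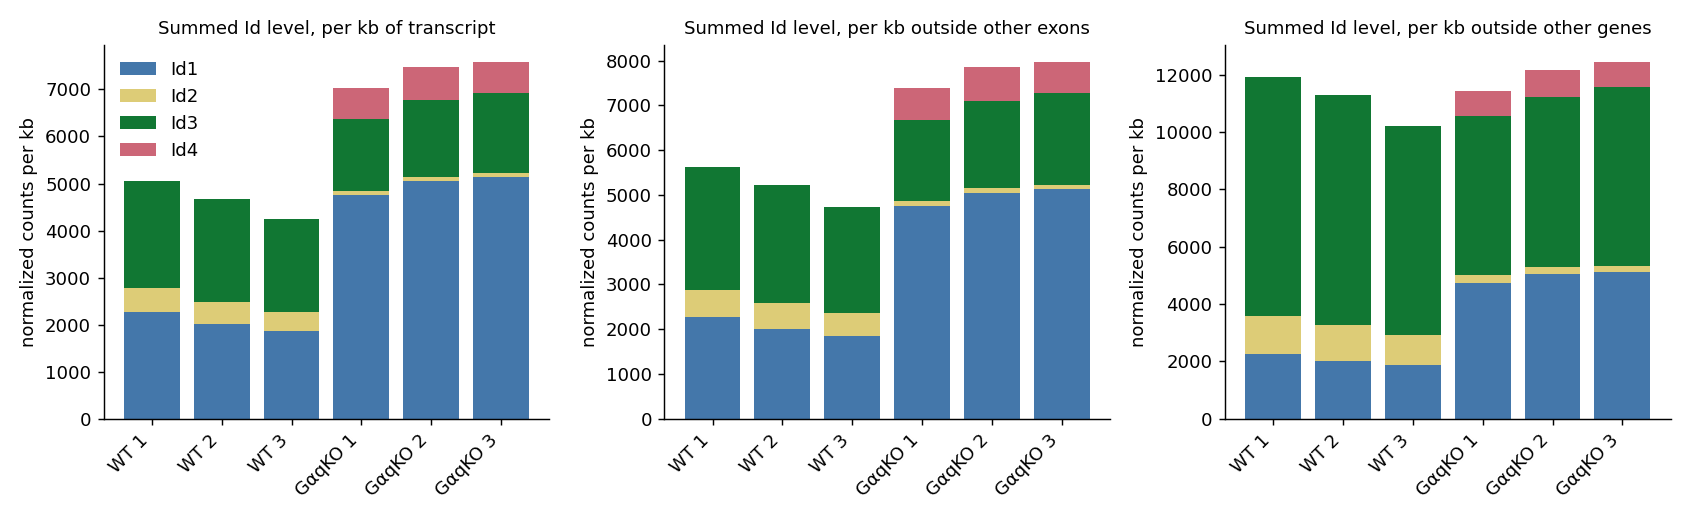
Summed level of the 4 Id genes in each library in normalized counts per kb, stacked by gene, with the length of the canonical transcript (left), its bases outside exons of other genes of the table (middle) or outside their whole spans (right). The left and middle sums separate the groups and the right sums do not, while the Id4 segment is visible in the libraries labelled GαqKO alone.

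The pattern that chose Id4 was counted over all genes as a description, and nothing is read from it for Id4. A level of 3 or fewer normalized counts in each WT library with a mean of 1000 or more in the libraries labelled GαqKO was met by 3 of 14096 genes (0.0213%): Id4, Kcnj2, a potassium channel gene, and Dlk1, an imprinted gene of undifferentiated mesenchyme. The mirror pattern was met by 8 genes (0.0568%): Sox11, Pcdh17, Peg10, Cadm1, Gata4, Gata6, Zcchc3 and Ddx3y. The first count depends on where the limits were set, since Parvb and Ccl28 lay just outside them. Parvb had 3.1 normalized counts in a WT library and a mean of 2465 ± 40.2 in the libraries labelled GαqKO. Ccl28 had 4.05 ± 1.78 in WT and 1620 ± 175 in the other group.

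The genes whose values lay nearest to each Id gene were found by Euclidean distance in log2(normalized count + 1) over the 6 libraries. For Id4 they were Parvb (distance 1.52), Kcnj2 (2.36) and Ccl28 (2.50). For Id1 they were Oxct1 (0.377), Nrp2 (0.443) and Nid1 (0.452), and for Id2 they were Nrp1 (0.416), Fblim1 (0.549) and Olfml2b (0.582). Id3 had the nearest ones, Ube2r2 (0.164), Snd1 (0.166) and Srsf5 (0.194). Nrp1 and Nrp2, related receptors for semaphorins and vascular endothelial growth factors, thus lay beside Id2 and Id1: Nrp1 had 1224 ± 54.6 normalized counts in WT and 217.1 ± 5.54 in the libraries labelled GαqKO, and Nrp2 had 2573 ± 201 and 5660 ± 182.

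The 250 bases before the start are shown for Id1 and Id4, the members that were higher in the libraries labelled GαqKO. Capitals mark the letters searched for on both strands. These were GGCGCC (a GC-rich SMAD site), TGACG (the core of a cyclic AMP response element), CANNTG (the E-box bound by bHLH pairs), CCAAT and TATAA.
Id1, chr2:152577915-152578164 of GRCm39, plus strand: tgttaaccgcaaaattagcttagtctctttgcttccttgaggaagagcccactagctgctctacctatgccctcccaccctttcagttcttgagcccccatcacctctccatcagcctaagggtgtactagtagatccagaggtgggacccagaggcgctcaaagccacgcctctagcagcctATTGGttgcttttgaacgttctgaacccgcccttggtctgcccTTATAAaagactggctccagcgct
Id4, chr13:48414308-48414557 of GRCm39, plus strand: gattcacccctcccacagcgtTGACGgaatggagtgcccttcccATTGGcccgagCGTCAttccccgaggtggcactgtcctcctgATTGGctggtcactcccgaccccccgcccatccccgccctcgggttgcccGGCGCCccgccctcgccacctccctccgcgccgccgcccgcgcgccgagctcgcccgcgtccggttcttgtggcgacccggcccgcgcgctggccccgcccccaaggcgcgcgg
Id4 held GGCGCC once, 114 bases before the start, as did 9.32% of 21664 promoters of that length, and the other members did not hold it. TGACG was found at 2 places in Id4, 1 in Id2, 1 in Id3 and none in Id1 (18.0% of promoters). CCAAT was found at 2 places in Id4, 2 in Id3, 1 in Id1 and none in Id2 (36.5%). The E-box letters were at 3 places in Id2 and in no other member (64.8%), and TATAA was found in Id1 alone, on both strands with the matches overlapping, 23 and 24 bases before the start (21.6%). The GC content was 75.6% in Id4, higher than in 97.9% of promoters, against 52.8% in Id1, 53.2% in Id2 and 46.4% in Id3. The median GC content of the promoters was 53.2%, so the share with GGCGCC is not matched to the composition of Id4. These are matches of letters within 250 bases, with no search farther upstream and no measurement of binding.

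The E proteins that ID proteins sequester did not move as a set. In the limma test with Benjamini-Hochberg adjustment, called at an adjusted p under 0.05 and a log2 fold change over 1 or under -1, 1 of the 3 was called. Over all 14096 genes 20.7% were called, 10.2% as higher and 10.5% as lower. The called gene was Tcf4, which encodes E2-2, with 906.4, 960.7 and 971.0 normalized counts in WT and 3238.7, 3214.3 and 3017.1 in those labelled GαqKO, giving a log2 fold change of 1.74 (SE 0.049, adjusted p 2.4e-12). Tcf3, which encodes E12 and E47, had 2434 ± 26.4 and 1905 ± 46.3 normalized counts, with an adjusted p of 5.9e-06 at a log2 fold change of -0.35, within the fold limits. Tcf12, which encodes HEB, had 1789 ± 41.2 and 1891 ± 57.0, with an adjusted p of 0.14. The means of Tcf4 were 3157 ± 122 in the libraries labelled GαqKO and 946 ± 34.8 normalized counts in WT. Its groups did not overlap, as in 33.8% of the tested genes with WT below.

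Of 42 tissue-restricted bHLH genes, the partners of E proteins, 6 were high enough to be tested and 21 were listed at 0 in each library. Twist2, a factor of mesenchyme, rose from 593.7 ± 31.1 to 1831 ± 72.1 normalized counts (log2 fold change 1.62, adjusted p 1.8e-11). Bhlhe22, a factor of neurons, was listed at 0 in each WT library and had 227.0 ± 14.4 in those labelled GαqKO, at least 75.7-fold higher. Tal1, a factor of blood cells, fell from 71.2 ± 5.27 to within the floor, at least 23.7-fold lower, and Tcf23 also fell, at least 6.33-fold. Twist1 had 851.3 ± 55.2 and 1617 ± 35.4, a log2 fold change of 0.93 that did not reach the fold limit. The myogenic gene Myog, a classic partner of E proteins, was listed at 0 throughout.

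Of 46 genes of BMP and SMAD signalling, 27 were tested. Called higher were 5 and lower 5, beside 10.2% and 10.5% of all genes tested. The median log2 fold change was -0.13 beside -0.012 over all genes tested. The median size without sign was 0.52 beside 0.39. Among the extracellular antagonists, Grem1 (gremlin 1) had 359.2, 341.0 and 333.9 normalized counts in WT. In those labelled GαqKO it reached 28489 ± 1085, the highest mean count of the list (log2 fold change 6.36, SE 0.046, adjusted p 4.5e-18). Fst (follistatin, which binds activins and some BMPs) rose from 19.4 ± 5.42 to 559.0 ± 26.3, while Chrdl1 fell from 31.6 ± 2.38 to 2.30 ± 2.54 and Fstl3 fell to within the floor, at least 8.86-fold.

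Among the ligands, Bmp6 rose from 4.43 ± 2.23 to 57.6 ± 6.37 normalized counts and Gdf5 from 0 to 13.3 ± 1.10, at least 4.45-fold. Bmp4, Bmper, Rgmb and Smad9, the other called genes of the list, were named after their values were seen. Bmp4 fell from 400.0 ± 18.3 to 109.8 ± 12.3 (log2 fold change -1.86, adjusted p 3.0e-09), and the BMP-binding protein gene Bmper fell by 1.40 on the log2 scale. The co-receptor gene Rgmb rose by 1.82. Smad9, a gene of the receptor-regulated SMAD factors, had a log2 fold change of -1.02, and its call was lost without WT replicate 3, GαqKO replicate 2 or GαqKO replicate 3 and in 2 other settings. The receptor genes Bmpr1a, Bmpr2 and Acvr1 had log2 fold changes of -0.38, -0.49 and -0.26, inside the fold limits, and Smad1 and Smad5 had 0.19 and -0.13.

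Other genes known to follow BMP signals did not share a direction, as the Id genes did not. Of 15 such genes, 12 were tested, 5 were called higher and 4 lower, with a median log2 fold change of 0.07. Over all genes tested, 10.2% were called higher and 10.5% lower. The median size without sign was 1.41 beside 0.39. Hey1, a repressor, had a log2 fold change of 2.60 (adjusted p 1.8e-09), Tbx3 1.87 and Msx1 1.77. Dlx3 fell from 255.5 ± 13.4 normalized counts to within the floor, at least 85.2-fold lower, and Gata3 fell by 2.51 on the log2 scale. Bambi, a decoy receptor, was low, 17.5 ± 2.51 and 6.89 ± 5.14. Its call was lost when any WT replicate or GαqKO replicate 2 was left out, and in DESeq2. Of the feedback inhibitors, Smad6 had 474.5 ± 19.6 and 208.6 ± 7.43 (log2 fold change -1.18, adjusted p 1.6e-08), and Smad7 had 1262 ± 52.5 and 1348 ± 37.6 (adjusted p 0.12). Smad6 and Smad7 were named after their values were seen. Runx2, with the highest mean count of the list, had a log2 fold change of 0.04 (adjusted p 0.57). Id1 was on the side of the 5 genes called higher, and Smad6 was among the 4 called lower. What these values say of BMP signalling was not tested. Tbx2 and Gata2, the other 2 called, lost their calls without GαqKO replicate 3, in edgeR and in DESeq2. Gata2 also lost its call without WT replicate 3, and Tbx2 with a pseudocount of 5.

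Of 17 genes for other ID partners and for enzymes of ID protein turnover, 15 were tested. In limma 2 were called higher and 0 lower, beside 10.2% and 10.5% of all genes tested. In edgeR and DESeq2 also 0 were lower. By limma 6 had an unadjusted p under 0.05 with a lower level. By adjusted p alone 11 passed, beside 65.8% of all genes. Pax2, whose product binds ID proteins, was at the floor in WT and was at least 21.7-fold higher, at 65.2 ± 10.2 normalized counts, in the libraries labelled GαqKO. Wdr48, a cofactor of USP1, was near the filter, with 6.98 ± 3.78 and 16.8 ± 1.61. Its call was lost without WT replicate 1 or GαqKO replicate 3, with a pseudocount of 5, in edgeR and in DESeq2. Usp1, which removes ubiquitin from ID proteins, had a log2 fold change of -0.39, and Cdc20, with the highest mean count of the list, had 0.19.

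The tested cell cycle inhibitor genes, which ID proteins hold down through E proteins and ETS factors, stayed inside the fold limits. Cdkn1c and Cdkn2b were listed at 0 in each library and were not tested. Of the 7 listed, 5 were tested and 0 were called by limma, edgeR or DESeq2. In limma 4 had a p under 0.05, adjusted or not, beside 65.8% of all genes tested by adjusted p. Cdkn2a, with the highest mean count, had 7415 ± 492 and 4506 ± 152 normalized counts, a log2 fold change of -0.72. Cdkn1a had -0.59, Cdkn2d 0.56 and Cdkn1b 0.26. Of 12 genes of the related HES and HEY repressors, 5 were tested and 3 were called, beside 20.7% of all genes tested. Hey1 and Bhlhe41 (log2 fold change 1.17) were called higher and Hes1 (-1.18) lower. Bhlhe40, with the highest mean count, had -0.46.

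**Figure D3:**
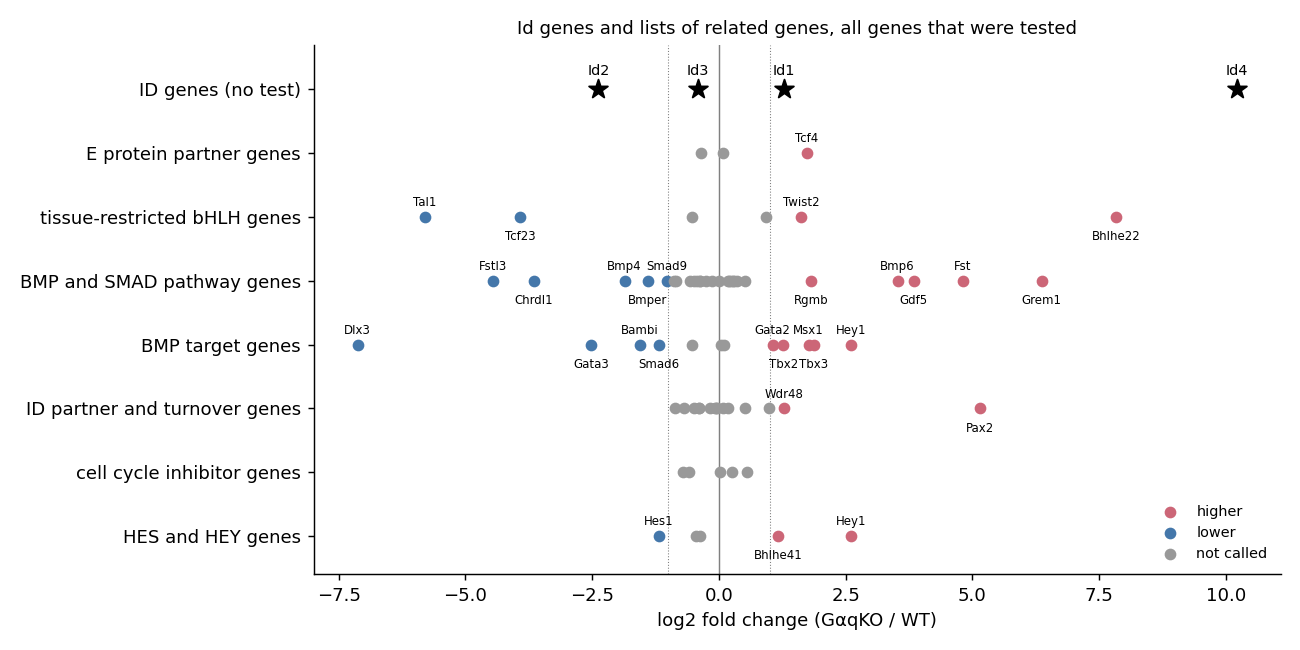
Log2 fold change (GαqKO over WT) of the 4 Id genes (stars, no test) and of each tested gene in the 7 lists, with dotted lines at 1 and -1 and called genes named and coloured. Id4, chosen for its change, was at 10.21, and Bhlhe22 at 7.83 and Dlx3 at -7.12 were the farthest among the lists. The distance between Id4 and Bhlhe22, both at the floor in WT, depends on the processing. They had 10.89 and 10.86 in edgeR and 11.01 and 10.31 in DESeq2.

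The genes around each Id gene were examined to see whether the members stood apart from their neighbourhood. Over all genes tested, 10.2% were called higher and 10.5% lower. Around Id4, the 4 tested genes within 500 kb all had log2 fold changes above 0, from 0.26 to 1.10. The nearest, Zfp169 and the Rik gene A830005F24Rik, began 252.4 kb downstream. By adjusted p in limma 2 of the 4 passed, beside 65.8% of all genes tested in either direction. Zfp169 (adjusted p 0.091) and A830005F24Rik (0.43) did not. Ptpdc1 (1.10, adjusted p 8.9e-07) was called, with 130.4 ± 4.88 and 282.4 ± 30.6 normalized counts. No tested gene began within 500 kb upstream of Id4. Id4 stood 9.52 above the median of these neighbours, a distance that follows from its choice for this change.

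Around Id2, 5 genes were tested and 0 were called by limma, edgeR or DESeq2. In limma 4 had an unadjusted p under 0.05, and by adjusted p 3 were lower and 1, Gm6969, was higher (log2 fold change 0.15, adjusted p 0.014). By adjusted p 65.8% of all genes tested passed in either direction. The median was -0.36, and Id2 lay 2.02 lower. Its nearest tested neighbour, Kidins220 at 122.4 kb downstream, had -0.36. Around Id1, 13 genes were tested with a median of 0.25. Id1 lay 1.03 above it and inside the range of these genes, from -9.97 to 2.21. The nearest were H13 (-0.39) upstream and Bcl2l1, an inhibitor of cell death, 95.1 kb downstream. Bcl2l1 was called higher, with 927.1 ± 40.1 and 2276 ± 28.6 normalized counts and a log2 fold change of 1.30, beside 1.29 for Id1. Foxs1 was also called higher (2.21), while Zcchc3 and 6820408C15Rik were called lower.

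Id3 lay nearest to the median of its neighbours. Of the 21 tested genes within 500 kb of it, 20 had log2 fold changes below 0. Called lower were 8, beside 10.5% of all genes tested: Ifnlr1, Il22ra1, Lypla2, Asap3, Tcea3, Zfp46, Htr1d and Luzp1. The median of the 21 genes was -0.79, so that Id3 at -0.42 was 0.38 above its neighbours. The nearest, Rpl11 upstream and E2f2 at 28.8 kb downstream, had -0.32 and -0.56. The same held over chromosome 4, where 78.2% of 859 tested genes had log2 fold changes below 0, against 50.8% of all genes tested, with a median of -0.35. Relative to that median Id3 differed by -0.06. The medians of chromosomes 2, 12 and 13, which carry Id1, Id2 and Id4, were 0.026, -0.073 and -0.012. Both comparisons with the surrounding genes were chosen after seeing the data.

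**Figure D4:**
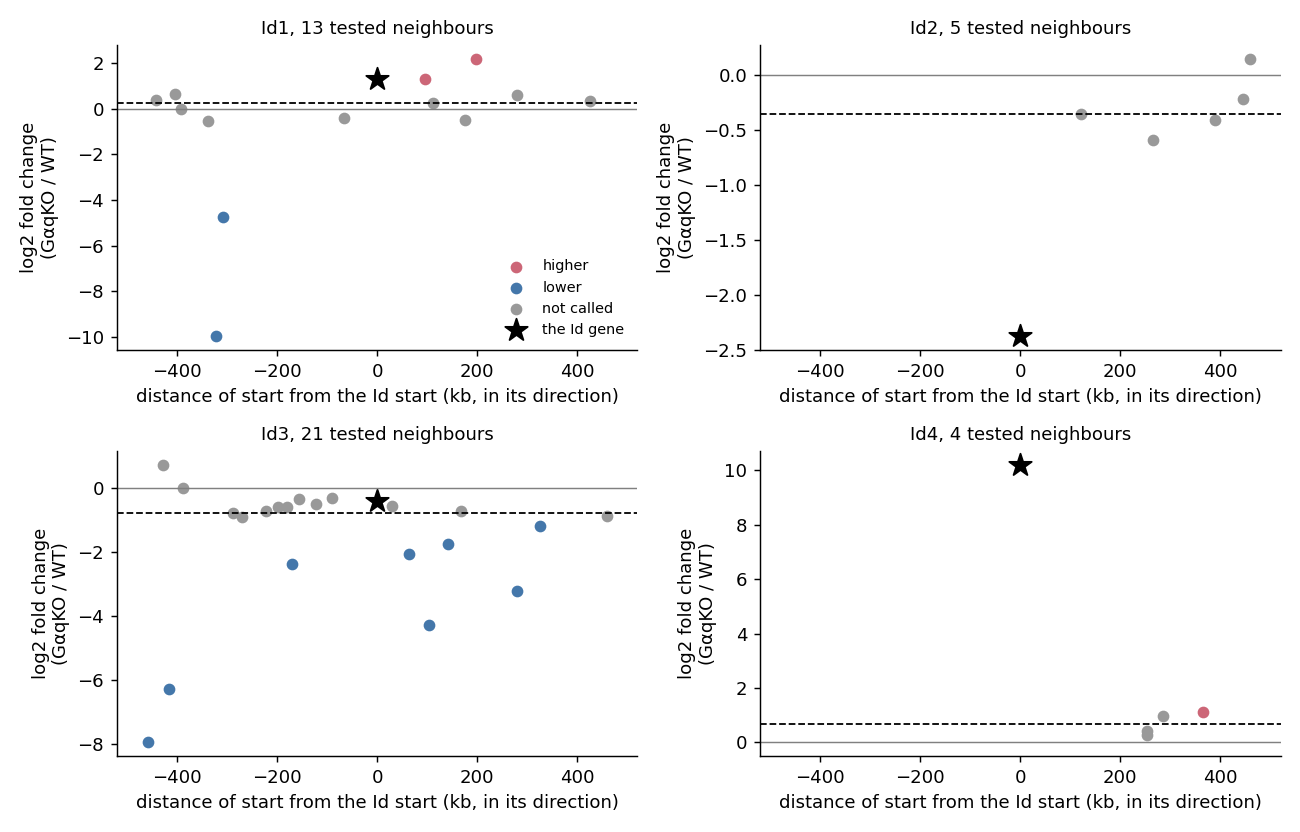
Log2 fold change (GαqKO over WT) of each tested gene within 500 kb of an Id gene against the distance of its start in kb, with the Id gene as a star at 0 and the median of the neighbours as a dashed line. Id1, Id2 and Id4 lay away from that line, by 1.03, -2.02 and 9.52, while Id3 lay 0.38 above a line at -0.79. Id1 and Id3 were inside the range of their neighbours. Id4 was chosen for its change in this contrast.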

How the data were processed

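RNA-seq was available for 3 WT and 3 GαqKO libraries of MEFs, which the study's methods call biological replicates. Libraries were made with a stranded mRNA kit after poly-A selection. Reads were aligned to GRCm39 with Rbowtie2 and counted per gene with featureCounts on GENCODE M32, and DESeq2 was used in R. Versions, the strand setting and any filter are not given in the sources used here. The authors deposited a normalized signal, namely gene counts divided by a size factor per library. Of 56953 identifiers, 56310 matched GENCODE M39, which gave names, coordinates and, with the GRCm39 sequence, coding and upstream sequence. Motif shares cover 21664 promoters.

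A gene was tested if 3 or more libraries held 10 or more normalized counts (14096 genes). The test was limma-trend (limma 3.58.1, R 4.3.3) on log2 of the normalized count plus 1, adjusted by Benjamini-Hochberg. Fold changes on that scale understate those of low genes. Called genes had an adjusted p under 0.05 and a log2 fold change over 1 or under -1. The code was tested on simulated data. In 5 libraries 100% of values came out as whole reads (tolerance 0.05), 9853000 to 12229175 per library. edgeR 4.0.16 and DESeq2 1.42.0 were run on these as alternatives. GαqKO replicate 3 was left out there, because its reads were not accepted as recovered. Floors of 3 counts cover counting error only. Coding sequences were aligned with MAFFT 7.526, in place of a planned comparison of proteins. Alternatives were scaling, pseudocount, filter, replicate block and leaving out each library.

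The named genes were the 4 Id genes, Gnaq, Gna11 and the E proteins. From each list they were up to 6 called genes with the largest absolute log2 fold change and the gene with the highest mean. To these came called and nearest tested neighbours and the 3 genes nearest to each Id gene. Genes named outside this rule were chosen after their values were seen. The members and all lists were chosen with earlier results of these data known.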

Additional observations from a re-analysis of the deposited data

How the results depend on the processing

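The log2 fold changes of Id1, Id2 and Id3 kept their sign and moved by less than 1 SD of the replicates under other scaling, pseudocounts, filters, the block, the count tests and leaving out a library, and that of Id4 kept its sign in each of these except the filter of 10 in every library, which removes it. Leaving out each library in turn gave 1.22 to 1.37 for Id1, -2.46 to -2.29 for Id2, -0.47 to -0.37 for Id3 and 10.12 to 10.39 for Id4. For Id4, at the floor in WT, the value was 10.57 with a pseudocount of 0.5, 8.75 with 5, 10.89 in edgeR and 11.01 in DESeq2. With the median within 500 kb subtracted, Id1 was 1.03, Id2 -2.02 and Id4 9.52, and Id3 reversed to 0.38. With the chromosome median subtracted, Id3 was -0.061.

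When 10 normalized counts were required in every library, which removes genes at the floor in a group, 831 genes were higher and 765 lower (1432 and 1486 as reported). The tissue-restricted bHLH list then had 1 called gene, the BMP and SMAD list 6, the ID partner list 0 and the neighbours 7. The ID partner list had 1 with a pseudocount of 5 and 1 without WT replicate 1, both times with Wdr48 lost. The fits without a library asked for 10 normalized counts in 1 library fewer than the main fit, so other genes could enter. Over these fits, the counts ran from 1426 to 1545 higher and 1492 to 1603 lower. They ran from 10 to 13 for the BMP and SMAD list, 7 to 9 for BMP targets, 3 to 4 for HES and HEY, 1 to 3 for ID partners and 14 to 16 for neighbours. They stayed at 4 for bHLH genes, 1 for E proteins and 0 for cell cycle inhibitors.

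Of 41 called genes in the lists, 36 kept their call in each alternative that tested them. Smad9, Bambi, Gata2, Tbx2 and Wdr48 did not, and none reversed. Runx2, not called, ran from -0.012 to 0.084 over the fits without a library. The labels do not say whether the shared replicate numbers pair the samples, and the main fit treated them as unpaired. Same-numbered libraries had correlations of deviations from the group means of -0.045, -0.15 and -0.064. Those of differently numbered libraries ran from -0.075 to 0.12. Such values cannot show whether the libraries were prepared in pairs. With the replicate number as a block, 1421 genes were higher and 1478 lower and the Id4 value was 10.21. With 3 libraries per group and no second pair of lines, the genotype cannot be told from the origin of the cells, and values under 3 counts are not separable from 0 at this depth.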
